A study of Mus musculus with 6 samples.

Results

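The 39 genes described here encode the enzymes and regulators that make, sense and move cholesterol and fatty acids, and they were measured in sorted CD4 and CD8 double-positive thymocytes of mice with and without the Kansl1 gene in T cells. They were chosen by name, as genes of these pathways, with earlier results of these data known, and the rule used no measured value. All 39 were found among the 29626 genes of the counts table. RNA-seq libraries came from 3 control mice, genotype Kansl1fl/fl (labelled WT, with no Cre), and from 3 KANSL1-deficient mice, genotype Kansl1fl/fl CD4-Cre, all 8 weeks old and untreated. The controls were littermates and carried the same floxed allele. KANSL1 is a scaffold of the NSL complex, in which the acetyltransferase KAT8 works. CD4-Cre is a Cre transgene under Cd4 regulatory sequences, active in developing T cells from about the double-positive stage on, so that earlier stages still have the gene. It was present only in the deficient mice, and effects of Cre and of Kansl1 loss cannot be told apart.

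Cells build cholesterol from acetyl-CoA through mevalonate, squalene and lanosterol, and build fatty acids from the same precursor. The SREBP transcription factors, held in the endoplasmic reticulum by INSIG proteins when sterols are plentiful and escorted by SCAP when they are not, switch on most of these enzymes together. Excess sterol activates the liver X receptors, which turn on the exporters ABCA1 and ABCG1. In thymocytes, membrane cholesterol is needed for receptor signalling and for the growth of dividing precursors.

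Of the 39 genes, 38 had enough reads to be tested, and 2 passed the test, both lower in KANSL1-deficient cells: Lss, which closes squalene epoxide into lanosterol, and Abca1, which exports cholesterol. The test was edgeR's quasi-likelihood test over 15353 genes, with Benjamini-Hochberg adjusted p under 0.05 as the threshold, of which 2.91% were lower and 3.85% higher at that threshold (6.76% in all). The 2 genes are 5.26% of the 38, a share near that background. None of the 38 was higher at the threshold by edgeR or limma-voom, and 1, Fads1, was by DESeq2. At an unadjusted p under 0.05 there were 9 genes, 3 higher and 6 lower, or 23.7% against 22.6% of all tested genes. The median log2 fold change, deficient over control, was -0.05 for the 38 genes and -0.02 for all tested genes.

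The promoters of 4 genes are shown first because they hold matches to short motifs searched for here and because 2 of them belong to the genes past the threshold. Each sequence is the 250 bases upstream of the RefSeq transcription start (mouse GRCm38.p6), written 5′ to 3′ on the gene's strand, outside the transcript. Capitals mark matches on either strand to 5 motifs: TCACNCCAC (core of a sterol regulatory element, bound by SREBPs), CCAAT (bound by NF-Y, a partner of SREBPs), GGGCGG (a GC box, bound by SP1), CACGTG (an E-box) and AGGTCA (a nuclear receptor motif). Overlapping matches were counted separately.
Lss, chr10:76531355-76531604, plus strand: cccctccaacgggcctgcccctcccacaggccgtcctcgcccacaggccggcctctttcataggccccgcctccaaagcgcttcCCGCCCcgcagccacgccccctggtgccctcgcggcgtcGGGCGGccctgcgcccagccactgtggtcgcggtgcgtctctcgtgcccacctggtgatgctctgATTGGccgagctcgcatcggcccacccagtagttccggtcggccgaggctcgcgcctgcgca
Abca1, chr4:53159896-53160145, minus strand: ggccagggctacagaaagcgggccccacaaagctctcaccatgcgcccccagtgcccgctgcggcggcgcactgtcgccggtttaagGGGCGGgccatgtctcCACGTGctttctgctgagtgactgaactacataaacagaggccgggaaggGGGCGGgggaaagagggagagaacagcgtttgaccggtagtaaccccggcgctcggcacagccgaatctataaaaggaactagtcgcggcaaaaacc
Hmgcs1, chr13:119690101-119690350, plus strand: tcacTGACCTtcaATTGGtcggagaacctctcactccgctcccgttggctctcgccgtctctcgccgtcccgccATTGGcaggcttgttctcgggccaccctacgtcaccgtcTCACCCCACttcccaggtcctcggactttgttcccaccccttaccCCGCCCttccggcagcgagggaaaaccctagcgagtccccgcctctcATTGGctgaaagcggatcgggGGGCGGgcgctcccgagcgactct
Idi1, chr13:8885356-8885605, plus strand: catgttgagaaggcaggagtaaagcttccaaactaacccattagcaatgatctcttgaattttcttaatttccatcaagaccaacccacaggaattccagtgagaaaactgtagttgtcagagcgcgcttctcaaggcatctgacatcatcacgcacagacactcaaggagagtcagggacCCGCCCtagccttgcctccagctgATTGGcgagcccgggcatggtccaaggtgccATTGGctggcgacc

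The Lss promoter held a CCAAT box starting 62 bases before the start site and GC boxes at 127 and 166 bases, in sequence that was 73.6% G or C. The Abca1 promoter held an E-box at 147 bases and GC boxes at 97 and 163 bases. That of Hmgcs1, the HMG-CoA synthase gene, was the only one among the matched genes with the sterol regulatory core as spelled, at 137 bases, beside 3 CCAAT boxes. The Idi1 promoter held CCAAT boxes at 14 and 45 bases and a GC box at 69 bases. RefSeq promoters were matched to 30 of the 39 genes, with 39 promoters in all, and promoters of genes on chromosome 18 were not used. No promoter was used for Fdft1, Sqle, Fdps, Fads1, Scd1, Scd2, Abcg1, Stard4 and Npc1, of which Stard4 and Npc1 lie on chromosome 18.

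CCAAT was found in 61.5% of the 39 promoters and in 33.9% of all 32851 promoters of the same length, and the GC box in 71.8% against 32.7%. At the level of genes, 14 of the 15 sterol synthesis genes with a promoter had a CCAAT box and 14 of 15 a GC box. The E-box stood in 17.9% of the promoters against 6.02% of all, the nuclear receptor motif in 20.5% against 14.0%, and the sterol regulatory core in 2.56% against 1.05%. These are matches of letters in the sequence, with no measurement of binding. Genes with and without a given match are found on both sides of the comparison below: Lss, with a CCAAT box, was lower, while Idi1, with 2 such boxes, was at 0.50 on the log2 fold change scale without passing the threshold.

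**Figure D1:**
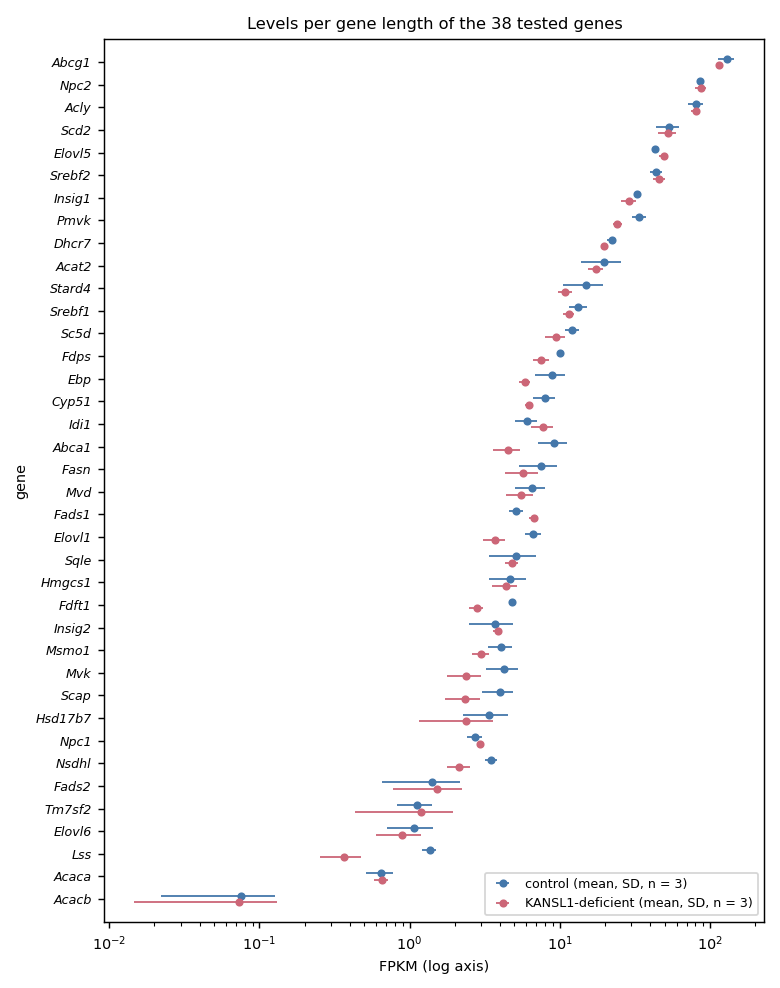
Mean FPKM (fragments per kilobase of gene length, scaled by library total, log axis) of the 38 tested genes in control (blue) and KANSL1-deficient (red) double-positive thymocytes, with bars for the SD over 3 mice. Abcg1 lies at the top and Acacb at the bottom, and the 2 groups part most clearly at Lss.

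The genes differed widely in level per length. Averaged over all 6 libraries, Abcg1, a cholesterol exporter, was the most abundant at 122 FPKM, followed by Npc2, which hands cholesterol out of lysosomes, at 86.8 FPKM and Acly, which makes cytosolic acetyl-CoA, at 80.5 FPKM. The stearoyl-CoA desaturase Scd2 stood at 52.7 FPKM and its paralog Scd1 at 0.028 FPKM, with 18 reads in total, 16 of them in control replicate 2, so that Scd1 was not tested. Of the acetyl-CoA carboxylases, which make malonyl-CoA, Acaca stood at 0.649 FPKM and Acacb at 0.074 FPKM. Srebf2, the SREBP gene that mainly drives sterol synthesis, was at 45.1 FPKM and Srebf1 at 12.4 FPKM, and Insig1 was at 30.9 FPKM against 3.79 FPKM for Insig2. Lss ranked 36 of 39 at 0.862 FPKM, on a gene length of 10787 bases as the deposited FPKM imply. FPKM were scaled by library totals, on which the median of all tested genes lay 0.15 lower (log2) in deficient cells than on the trimmed-mean (TMM) scaling used for the tests.

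The 7 genes of the mevalonate steps, from acetyl-CoA to farnesyl diphosphate, held no call by edgeR, DESeq2 or limma-voom. Without adjustment 2 were under 0.05 (28.6%, against 22.6% of all tested genes), 1 in each direction. Log2 fold changes ran from -0.69 (Mvk) to 0.50 (Idi1) with a median of -0.09. Mvk, the mevalonate kinase gene, was at 8.46, 13.9 and 10.3 CPM (reads scaled to a common library size, with TMM) in the 3 controls and at 6.74, 8.53 and 4.96 CPM in the deficient mice. The lowest control lay just below the highest deficient library. The adjusted p was 0.205. Idi1, which isomerises isopentenyl diphosphate, was at 18.7, 17.7 and 24.1 CPM in controls and 34.3, 27.2 and 24.2 CPM in deficient mice. The groups met almost exactly, at control replicate 3 and deficient replicate 3, and the adjusted p was 0.182. Pmvk and Fdps, the next kinase and the farnesyl diphosphate synthase, had lower values in every deficient library than in any control, with log2 fold changes of -0.34 and -0.26 (adjusted p 0.237 and 0.398). Hmgcs1, whose promoter holds the sterol regulatory core, was at 19.8, 15.1 and 25.9 CPM against 26.2, 17.6 and 19.97 CPM, so that the groups overlapped over most of their ranges. Its log2 fold change was 0.07 with a 95% interval from -0.47 to 0.60. Mvd and Acat2, an enzyme of acetoacetyl-CoA formation, were at -0.09 and -0.04.

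Lss held the largest difference of the 38 genes. Its level was 14.6, 12.5 and 14.7 CPM in control replicates 1 to 3 and 3.69, 3.25 and 5.46 CPM in the deficient ones. The lowest control exceeded the highest deficient library by far, and the 3 libraries of each group lay close together. Lss fell by 1.75 on the log2 scale (SE 0.29, 95% interval -2.38 to -1.12, adjusted p = 0.00665), which is 3.37-fold lower. The reads behind it were 301, 284 and 335 in controls and 75, 69 and 109 in deficient mice. In FPKM the gene went from 1.36 ± 0.14 (SD, n = 3) to 0.364 ± 0.11 (SD, n = 3). The call held in all 16 alternative analyses, the 6 that leave out 1 library included, with adjusted p up to 0.0396. The gene, ENSMUSG00000033105, lies on chromosome 10 at 76367422-76392972, plus strand, in GRCm39. In the authors' deposited table its log2 fold change is -1.75 with an adjusted p of 1.77e-06, and Lss is the only one of the 39 genes marked there as significant.

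The enzymes just before Lss had smaller log2 fold changes. Fdft1, squalene synthase, was at 18.7, 19.9 and 17.99 CPM in controls and 13.5, 12.5 and 10.5 CPM in deficient mice. The groups did not overlap, yet the log2 fold change of -0.63 (SE 0.21) had an adjusted p of 0.0989 by edgeR and 0.0427 by DESeq2. Fdft1 overlaps Ctsb, a more abundant gene on the opposite strand, by 774 bases, and the strand setting of the read counting is not given. Ctsb was at -0.08 (log2 fold change, adjusted p 0.807). Sqle, which oxidises squalene just before Lss acts, was at 36.7, 19.2 and 25.1 CPM in controls and 28.2, 31.3 and 25.2 CPM in deficient mice. Control replicates 1 and 2 of Sqle spanned all deficient values, and the log2 fold change was 0.07 (95% interval -0.45 to 0.58). The ratio of Lss to Sqle in FPKM was 0.204, 0.335 and 0.302 in controls and 0.0673, 0.0533 and 0.111 in deficient libraries, with no overlap.

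**Figure D2:**
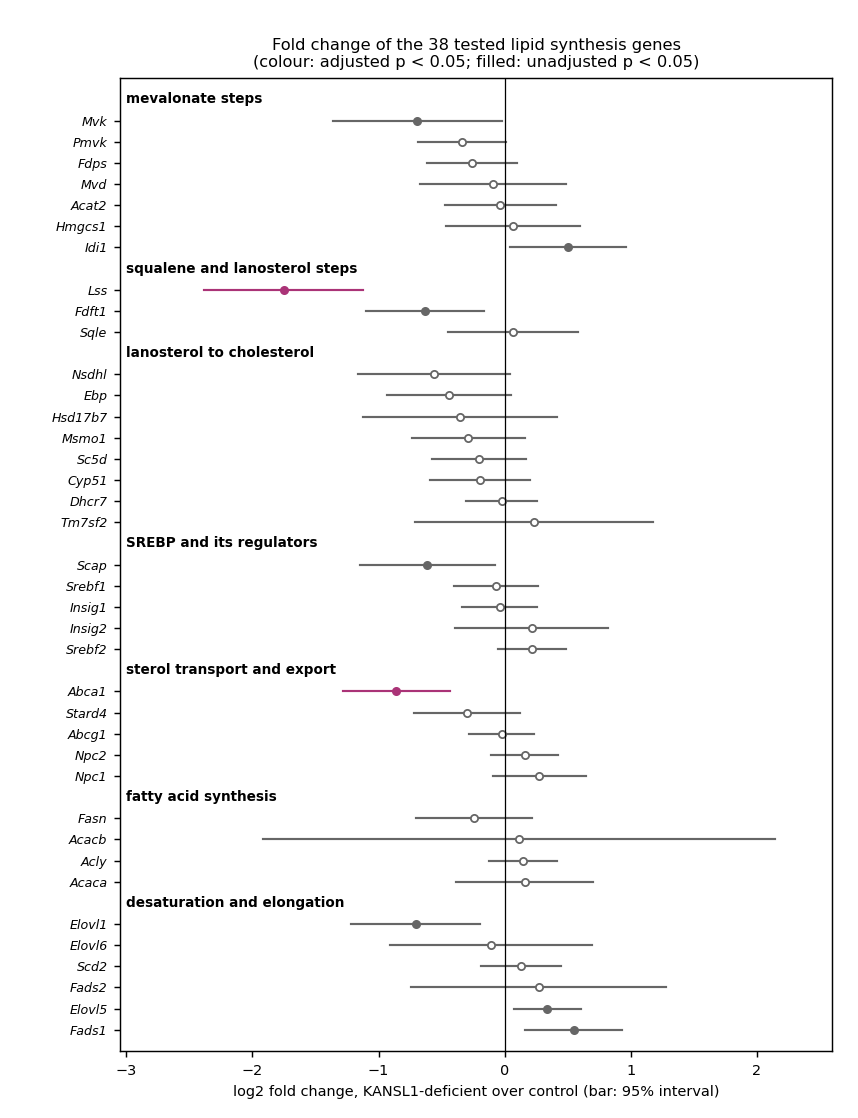
Log2 fold change (KANSL1-deficient over control, edgeR) of the 38 tested genes by role, with bars for the 95% interval; colour marks adjusted p under 0.05 and filled points an unadjusted p under 0.05. Lss and Abca1 are the coloured genes, and 7 of the 8 genes from lanosterol to cholesterol lie below 0 with intervals that reach it.

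The 8 genes that turn lanosterol into cholesterol had no call by edgeR, DESeq2 or limma-voom, nor was any p under 0.05 without adjustment. Of these, 7 had negative values, and the median was -0.25 on the log2 fold change scale. Nsdhl, a sterol dehydrogenase that removes carboxyl groups at C4, was at 8.42, 10.1 and 10.03 CPM in controls and 5.41, 7.59 and 6.36 CPM in deficient mice. The groups did not overlap (log2 fold change -0.56, adjusted p 0.257). Ebp, the sterol isomerase, was at 16.5, 17.3 and 24.4 CPM against 13.4, 14.1 and 15.3 CPM. These groups were also apart (-0.44, adjusted p 0.274). Hsd17b7 was uneven among mice, at 13.3, 13.4 and 22.9 CPM in controls and 20.9, 9.003 and 8.91 CPM in deficient mice. Tm7sf2, a sterol reductase, was the only gene of this group above 0 (0.23), carried by deficient replicate 3 at 9.36 CPM against 3.44 and 3.63 CPM in the other deficient mice. Dhcr7 reduces a double bond of the sterol ring in the last step of one branch of the pathway. It was the most abundant gene of this group at 21.0 FPKM, and its log2 fold change was -0.02 with a narrow 95% interval from -0.30 to 0.26. Cyp51, Msmo1 and Sc5d, which remove methyl groups from lanosterol or desaturate the ring, were at -0.20, -0.29 and -0.20.

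Over the 18 sterol synthesis enzymes from Acat2 to Dhcr7, 14 had negative values (77.8%, against 51.8% of all tested genes), with a median log2 fold change of -0.23, and 1 of 18 passed the threshold. The number of negative values was 13 to 17 of 18 across the 16 alternatives, and the median ran from -0.38 to -0.13. The mean deviation of these genes from their control mean (log2 CPM) was -0.03, -0.11 and 0.14 in the 3 controls and -0.25, -0.33 and -0.26 in the 3 deficient libraries. Without Lss the deficient libraries were at -0.15, -0.23 and -0.19 and the controls at -0.03, -0.11 and 0.14. Each deficient library thus lay below each control with and without Lss, by little in the case of control replicate 2. Among all 38 genes, 12 had groups that did not overlap (31.6%, a share near the 28.5% of all tested genes), 4 higher and 8 lower in deficient cells. Of the 18 sterol synthesis enzymes, 7 did not overlap (38.9%, against the same 28.5%), 6 lower and 1 higher.

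**Figure D3:**
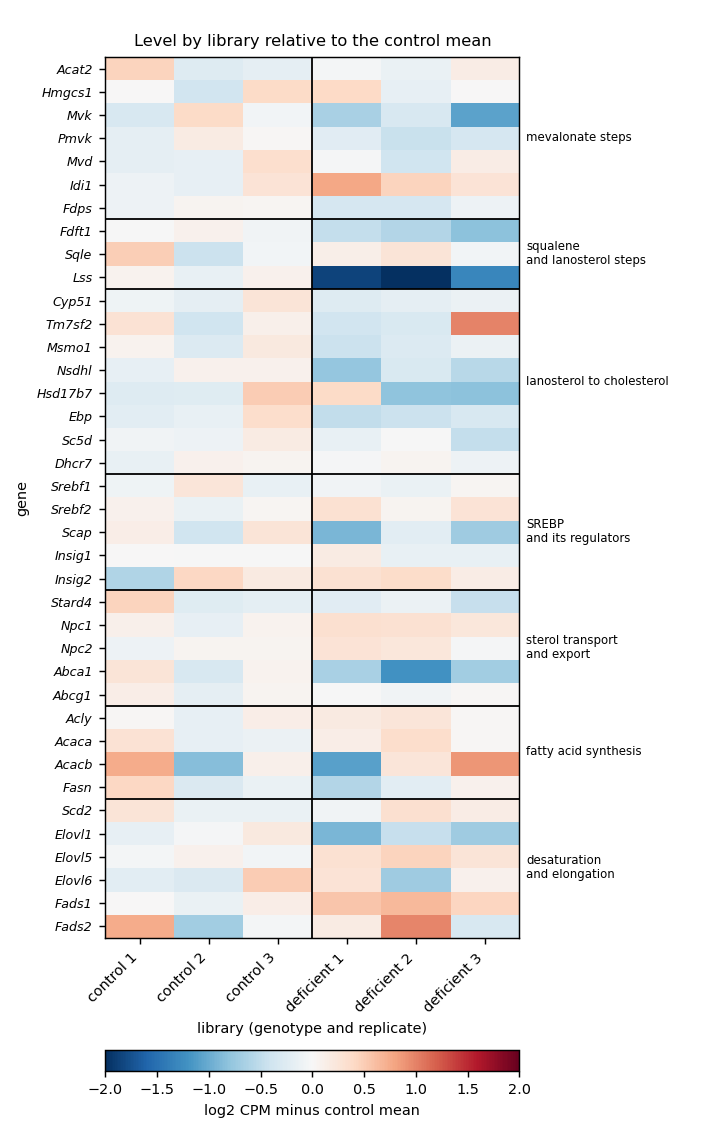
Heat map of log2 CPM minus the control mean for the 38 tested genes (rows, grouped by role) in each of the 6 libraries (columns); blue is below and red above the control mean. Lss is dark blue in all 3 deficient libraries, and most other rows stay pale.

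The 5 genes that control SREBP were not called by edgeR, DESeq2 or limma-voom. Only Scap was under 0.05 without adjustment (20% of the 5, against 22.6% of all tested genes). Scap, the escort of SREBP to the Golgi, was at 30.1, 20.9 and 33.1 CPM in controls and 14.5, 23.8 and 16.8 CPM in deficient mice. Control replicate 2 lay below deficient replicate 2, and the log2 fold change of -0.61 had an adjusted p of 0.159. Insig1, a sterol-responsive gene itself, was at 97.2, 96.4 and 96.5 CPM in controls and 108, 87.5 and 86.9 CPM in deficient mice. The deficient values fell on both sides of the near-equal controls, with a log2 fold change of -0.04 (95% interval -0.34 to 0.26). Srebf1 was at -0.07 (interval -0.40 to 0.27) and Srebf2 at 0.22 (interval -0.05 to 0.48). Insig2 was at 0.22, with control replicate 1 at 7.69 CPM and the other libraries between 13.0 and 15.7 CPM.

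Among the 5 genes of sterol transport and export, Abca1 fell and its partner in export, Abcg1, did not pass the test. Abca1, the transporter that loads cholesterol onto apolipoprotein A-I, was at 106, 70.7 and 93.2 CPM in controls and 56.4, 38.1 and 54.6 CPM in deficient mice. The groups did not overlap, and replicate 2 was the lowest of each. Abca1 fell by 0.86 on the log2 scale (SE 0.19, 95% interval -1.28 to -0.43, adjusted p = 0.0241), which is 1.81-fold lower. In FPKM it went from 9.16 ± 1.96 to 4.55 ± 0.93 (SD, n = 3 each). The call was lost when any 1 library other than control replicate 2 was left out, with adjusted p up to 0.105, and over the 6 such analyses the log2 fold change ran from -1.02 to -0.70. The gene, ENSMUSG00000015243, lies on chromosome 4 at 53030787-53159895, minus strand, in GRCm39. In the authors' deposited table Abca1 has a log2 fold change of -0.86 and an adjusted p of 0.000599, and is not marked as significant.

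Abcg1 was at 976, 784 and 929 CPM in controls and 887, 851 and 908 CPM in deficient mice. The deficient values lay within the range of the controls, and the log2 fold change of -0.02 had a 95% interval from -0.28 to 0.23. The ratio of Abca1 to Abcg1 in FPKM was 0.0765, 0.0635 and 0.0707 in controls and 0.0448, 0.0315 and 0.0423 in deficient libraries, with no overlap. Npc1, which moves cholesterol out of lysosomes with Npc2, was at 31.1, 25.9 and 30.5 CPM against 36.3, 35.8 and 33.9 CPM. These groups were apart, at 0.28 on the log2 fold change scale (adjusted p 0.374). Npc2 was at 0.16 and Stard4, a carrier of sterol between membranes, at -0.30.

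The 4 fatty acid synthesis genes were not called by edgeR, DESeq2 or limma-voom, and no p was under 0.05 before adjustment. Acly was at 409, 360 and 444 CPM in controls and 458, 478 and 408 CPM in deficient mice, with overlapping groups and a log2 fold change of 0.15 (95% interval -0.12 to 0.42). Fasn, the fatty acid synthase gene, was at 102, 62.6 and 69.4 CPM against 50.7, 65.9 and 80.8 CPM. Control replicate 1 was the highest and deficient replicate 1 the lowest of its 6 values, and the log2 fold change was -0.24 (interval -0.70 to 0.22). Acaca was at 0.16. Acacb had only 3 to 26 reads a library, and its interval from -1.92 to 2.14 means that smaller changes were not detectable at this depth.

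Desaturation and elongation genes had values in both directions, and none of the 6 tested passed the threshold by edgeR or limma-voom. DESeq2 called 2 of them, where it called 16.1% of the genes to which it gave an adjusted p. Without adjustment 3 had a p under 0.05 (50%, against 22.6% of all tested genes). Fads1, the delta-5 desaturase of polyunsaturated fatty acids, was at 23.4, 21.2 and 25.8 CPM in controls and 34.4, 37.0 and 31.5 CPM in deficient mice. The groups were apart, with a log2 fold change of 0.55 (SE 0.18) and an adjusted p of 0.0846 by edgeR and 0.0305 by DESeq2. Elovl5, the elongase of polyunsaturated chains, was at 141, 154 and 139 CPM against 179, 197 and 172 CPM. Every deficient library was above every control (log2 fold change 0.34, adjusted p 0.116). Fads2, which acts before Elovl5, varied from 2.38 to 6.87 CPM among controls and from 3.15 to 8.15 CPM among deficient mice, so that its interval ran from -0.74 to 1.28.

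Elovl1, the elongase of very long saturated chains, went the other way, at 15.3, 16.9 and 19.7 CPM in controls and 9.05, 12.4 and 10.4 CPM in deficient mice. The groups did not overlap, and the log2 fold change of -0.71 (SE 0.23) had an adjusted p of 0.0897 by edgeR and 0.0365 by DESeq2. Elovl1 overlaps the mitotic gene Cdc20, on the opposite strand, by 53 bases. Cdc20 rose by 1.51 on the log2 scale (adjusted p = 0.00368), opposite in sign to Elovl1. The FPKM ratio of Elovl1 to Elovl5 was 0.141, 0.142 and 0.184 in controls and 0.0652, 0.0814 and 0.0781 in deficient libraries. Scd2 was at 0.13 (log2 fold change) and Elovl6 at -0.11. Over the 10 tested fatty acid enzymes, 7 had positive values with a median of 0.14, which became -0.01 with library totals as the scaling, 0.00 or -0.01 on FPKM, and -0.00 without control replicate 2.

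**Figure D4:**
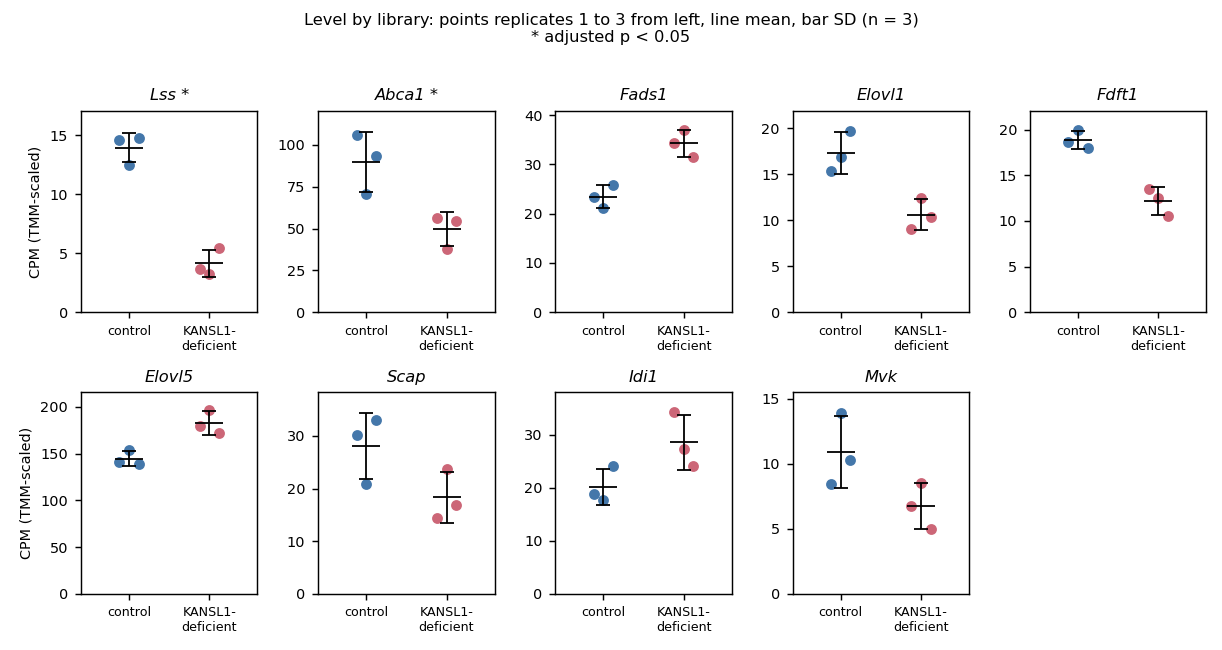
CPM (TMM-scaled) in each library of the 9 genes with an unadjusted p under 0.05, ordered by p; points are replicates 1 to 3 from the left, the line is the mean and the bar the SD (n = 3). Lss and Abca1, starred, pass the adjusted threshold; the groups of Scap and Mvk overlap.

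DESeq2 on the same counts called 5 of the 39 genes (Lss, Abca1, Fdft1, Elovl1 and Fads1), where it called 16.1% of the genes to which it gave an adjusted p. Limma-voom called 2 and 7.99% of all tested genes. The authors' deposited table gives the same 5 genes an adjusted p under 0.05, against 14.9% of all genes with an adjusted p there.

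In the wider pathway, 94 further genes were listed in 5 groups, 92 were in the table and 81 were tested. Of these, 2 rose and 5 fell, or 8.64% of those tested against 6.76% of all tested genes, a share near that background, and the median log2 fold change was -0.01. The isoprenoid branch uses farnesyl diphosphate for dolichol, ubiquinone and protein prenylation. Of its 16 genes 1 fell (6.25%), and 7 (43.8%, against 22.6% of all tested genes) had an unadjusted p under 0.05, all lower. Negative values were found for 12 genes (75.0%, against 51.8% of all), with a median of -0.29 against -0.02. Dhdds, a subunit of the enzyme that starts dolichol synthesis, was at 31.5, 20.7 and 35.7 CPM in controls and 9.05, 17.4 and 10.1 CPM in deficient mice. The groups did not overlap, and Dhdds fell by 1.26 on the log2 scale (SE 0.29, adjusted p = 0.0245). Its partner Nus1 was at -0.43 (adjusted p 0.178), and Rce1 and Zmpste24, proteases that trim prenylated proteins, were at -0.50 and -0.56 (adjusted p 0.0575 and 0.0649 by edgeR).

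Among the 10 genes of SREBP processing and turnover, Erlin2 fell. It encodes a membrane protein that helps degrade sterol-regulated proteins of the endoplasmic reticulum. Erlin2 was at 17.3, 18.8 and 14.7 CPM in controls and 8.51, 8.58 and 4.26 CPM in deficient mice, with all deficient values well below the controls, and fell by 1.25 on the log2 scale (SE 0.30, adjusted p = 0.0288). Of the 22 tested genes of sterol sensing and handling, Soat1 rose. It stores cholesterol as esters. Soat1 was at 152, 111 and 167 CPM in controls and 237, 282 and 210 CPM in deficient mice, with the groups apart, and rose by 0.77 on the log2 scale (SE 0.17, adjusted p = 0.0215).

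Of 19 tested genes of fatty acid supply, activation and elongation, 1 rose and 3 fell (21.1%, against 6.76% of all tested genes). Hsd17b12, a reductase of the elongation cycle that works with every ELOVL enzyme, was at 47.2, 53.4 and 53.8 CPM in controls and 20.1, 31.0 and 15.5 CPM in deficient mice. The groups were far apart, and the gene fell by 1.21 (log2, SE 0.23, adjusted p = 0.0128). Mecr, the last enzyme of mitochondrial fatty acid synthesis, was at 19.8, 34.3 and 31.3 CPM against 6.69, 12.7 and 11.5 CPM and fell by 1.47 (log2, SE 0.29, adjusted p = 0.0131). Acsl5, which activates long chains, was at 46.5, 33.0 and 50.5 CPM in controls and 22.8, 21.8 and 22.4 CPM in deficient mice, and fell by 0.96 (log2, adjusted p = 0.0159). It overlaps Zdhhc6, a more abundant gene on the opposite strand, by 26430 bases. Zdhhc6 had a mean of 69.8 CPM in controls and 46.1 CPM in deficient mice and also fell, by 0.60 (log2, adjusted p = 0.0392). Acss2, which makes acetyl-CoA from acetate, was at 55.0, 59.2 and 61.1 CPM in controls and 88.8, 89.0 and 83.2 CPM in deficient mice. Acss2 rose by 0.57 (log2, SE 0.13, adjusted p = 0.0270), while Ggt7, which overlaps it by 290 bases on the opposite strand, fell by 1.59 (log2, adjusted p = 0.0145). Its overlap with Gss, also on the opposite strand, was 22544 bases, and Gss was at -0.35 (log2 fold change, adjusted p 0.399). With 1 library left out, Hsd17b12 and Mecr were called in 4 of 6 analyses, Soat1 in 3, Acsl5 and Dhdds in 2, and Erlin2 and Acss2 in 1, and without deficient replicate 1 none of the 7 was. Acss2 was also not called with library totals as the scaling, and neither Acss2 nor Soat1 was called on FPKM, with the direction kept. With the trend with abundance removed, Erlin2 (adjusted p 0.05) and Soat1 (adjusted p 0.0567) were not called.

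**Figure D5:**
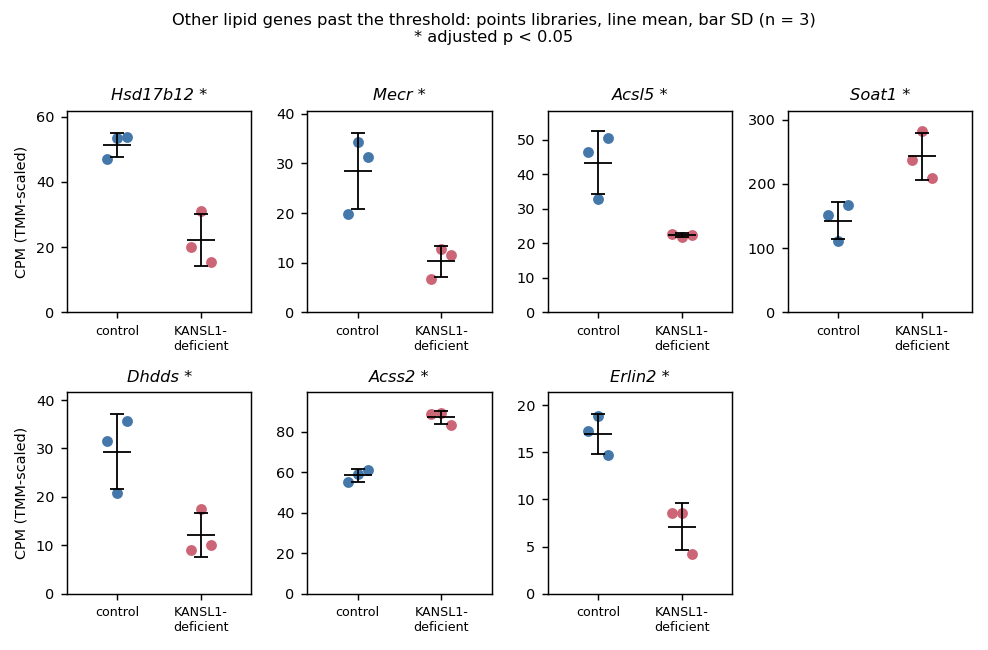
CPM (TMM-scaled) in each library of the 7 wider pathway genes past the adjusted threshold, ordered by p; points are the libraries, the line is the mean and the bar the SD (n = 3). Soat1 and Acss2 are higher and the other 5 lower in KANSL1-deficient cells, with no overlap between groups.

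Libraries held 19361968 to 22459830 counted reads, and Kansl1 itself, counted over the whole gene, was at 214, 189 and 230 CPM in controls and 146, 168 and 188 CPM in deficient mice (log2 fold change -0.33, adjusted p 0.171). Such a count still includes transcripts that lack only the floxed part, so it checks the labels weakly. All 9 double-positive markers were present, with a summed level of 12352 to 12842 CPM in controls and 14620 to 16310 CPM in deficient mice. All 14 mitosis markers rose, by 2.07 at the median (log2), with a sum of 264 to 425 CPM against 996 to 1149 CPM, and their part in the lipid gene values was not tested. Macrophage and dendritic markers, of cells rich in Abca1, summed to 11.2 to 17.2 CPM and 9.29 to 16.7 CPM, with Adgre1, Itgax, Mertk and Cd74 under 1 CPM in every library. These sums overlap between the groups, while single markers went both ways. Cd68, the largest part, was at 7.30, 11.8 and 11.7 CPM in controls and 9.89, 5.61 and 4.05 CPM in deficient mice. Lyz2 was at 0, 1.23 and 0.31 CPM against 2.12, 1.89 and 2.95 CPM, without overlap. Over the 6 tested markers the median log2 fold change was -0.42, and none passed the threshold. The part of these markers in the Abca1 value was not tested. The 4 adipocyte markers in the table stayed under 1 CPM throughout. Summed levels of other lists, control against deficient, were 79.0 to 88.9 and 94.8 to 121 CPM for double-negative thymocytes. They were 349 to 430 and 616 to 780 CPM for CD4 single-positive cells. CD8 single-positive markers summed to 1930 to 2258 and 2531 to 3069 CPM. Most of this was Cd8a, shared with the double-positive list, at 2227, 2198 and 1897 CPM in controls and 2505, 3042 and 2518 CPM in deficient mice. Of the other CD8 markers, Runx3 was at -0.69 and Klf2 at 0.67 (log2 fold change, adjusted p 0.0522 and 0.308 by edgeR). Nkg7, Eomes and Ccl5 were under 1 CPM in every library. Of the B cell genes, Ighm was at 249, 245 and 353 CPM in controls and 463, 516 and 437 CPM in deficient mice and rose by 0.74 (log2, adjusted p = 0.0166), Cd79b was at -0.15 (log2 fold change), and Cd79a and Pax5 were under 1 CPM in every library. The part of these genes in the lipid gene values was not tested. For erythroid cells the sums were 3.87 to 8.85 and 3.64 to 5.21 CPM. For thymic epithelium and stroma they were 143 to 210 and 196 to 241 CPM, with Krt5, Krt8, Foxn1, Col3a1 and Pdgfra under 1 CPM. Pecam1 made up most of this, at 173, 132 and 197 CPM in controls and 229, 229 and 181 CPM in deficient mice. Pecam1, Epcam and Psmb11 were at 0.34, 0.19 and 0.76 (log2 fold change). Pdgfrb and Col1a1 were at -2.38 and -1.13. None of these 5 passed the threshold. In such bulk samples fewer cells expressing a gene and less RNA of it per cell cannot be told apart.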

How the data were processed

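RNA was measured by poly(A)-selected RNA-seq in sorted double-positive thymocytes of 3 control and 3 KANSL1-deficient mice, 1 library a mouse. STAR, featureCounts, DESeq2 and build GRCm39 are named in the submitters' processing notes; the sources used here give no version, annotation release or strand setting. The deposited table holds whole-number read counts per gene, as the file headers say, with the authors' normalized mean signal, fold (a ratio), log2 fold change and p-values. The authors' FPKM equal CPM of the library total divided by a fixed length per gene.

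Counts as deposited were tested with edgeR 4.0.16 in R 4.3.3 (quasi-likelihood, robust, TMM scaling, filterByExpr with minimum count 10 and total 15, group as the only term), adjusted by Benjamini-Hochberg over 15353 genes with a threshold of 0.05. SE is the absolute log2 fold change over the square root of F. Alternatives used DESeq2 1.42.0, limma 3.58.1 (voom, and log2(FPKM + 1) or log2(FPKM + 0.1)), other scalings and filters, removal of a lowess trend with abundance (span 0.3), a replicate block, and leaving out each library. Library-wise deviations used log2(CPM + 0.25). On simulated counts for 15353 genes the test recovered 17.9% of 67 changes of 1.5-fold, 73.1% of 67 of 2-fold and 98.5% of 66 of 4-fold. The changed genes all had a mean of at least 5 CPM. No library pair was near identical (chi-square per degree of freedom from 21.6 to 63.7).

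The 39 genes, the 5 wider lists and the marker lists were chosen with earlier results of these data known. Genes past the threshold, or with an unadjusted p under 0.05 among the 39, were named with each library's value. Library values of further genes among the 39 (such as Hmgcs1, Sqle, Nsdhl, Ebp, Insig1, Abcg1, Npc1, Acly and Fasn) were added after their values were seen, and the rest are given by fold change, range or count. Of the wider lists, up to 4 genes past the threshold with the smallest p were named; Nus1, Rce1 and Zmpste24 were named after their values were seen. Promoters came from RefSeq (GRCm38.p6) and gene positions from the deposited table (GRCm39). Cyp27a1 and Elovl3 are not analysed here. The values of 1 marker gene are not reported here.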

Additional observations from a re-analysis of the deposited data

How the results depend on the processing

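Of 256 values for 16 named genes under the 16 alternatives, 211 kept their side of the threshold, 40 lost a call, 5 gained one and none changed direction. DESeq2 called 2040 genes against 1038, with 1 of the 39 genes higher and 4 lower, and 13 wider genes against 7. Library totals as the scaling, which shifted all genes by -0.15 (log2), called 4 of the 39 lower (Elovl1 and Fdft1 added) and 11 wider genes, with a median of the 38 genes of -0.20; the share of called genes that were higher was 27.7% there and 56.9% with TMM. That median was -0.20 on log2(FPKM + 0.1) and -0.18 on log2(FPKM + 1). Without a filter 1729 genes and 13 wider genes were called, and with at least 5 CPM in 3 libraries 12 wider genes. Leaving out 1 library gave 283 to 811 genes called, 0 to 7 wider genes, 1 to 2 of the 39 lower and a median from -0.1898 to -0.0198. The replicate block gave 406 genes and 4 wider genes, with Lss and Abca1 still called. Dhdds, Soat1 and Acss2 were not called there (adjusted p 0.0688, 0.0714 and 0.0926). Same-numbered libraries correlated at -0.049, -0.024 and -0.095 in their deviations from the group mean, and no library correlated best with its own number. With 3 libraries a group, such values cannot settle whether equal numbers mark paired mice. The cause of the differences between settings was not tested. At this depth and n, simulated 1.5-fold changes were called in 12 of 67 genes (17.9%), so changes of that size can be missed. Far fewer genes were changed in the simulation than were called in the data, so the share in the data may differ.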

Other observations

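Fatty acid oxidation, the breakdown of fatty acids in mitochondria, was also measured. Of 15 listed genes 14 were tested, and none passed the threshold by edgeR. Without adjustment 3 had a p under 0.05 (21.4%, against 22.6% of all tested genes). DESeq2 called 2, where it called 16.1% of the genes to which it gave an adjusted p. Limma-voom called 1, where it called 7.99% of all tested genes. The median log2 fold change was 0.17, with 9 positive and 5 negative values. Acadl, a long-chain acyl-CoA dehydrogenase gene, was at 19.2, 19.2 and 25.8 CPM in controls and 37.0, 35.2 and 31.6 CPM in deficient mice, with no overlap (log2 fold change 0.69, adjusted p 0.0516 by edgeR). Hadhb, a subunit of the trifunctional protein, was at 139, 140 and 146 CPM against 192, 175 and 160 CPM (0.31, adjusted p 0.153). Slc25a20, the carnitine carrier, was at 23.6, 30.1 and 29.2 CPM against 15.1, 22.0 and 14.2 CPM, also without overlap (-0.69, adjusted p 0.0835). These 3 genes were chosen after their values were seen.

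Vldlr, a lipoprotein receptor, was near the limit of detection, at 0, 0 and 0.18 CPM in controls and 0.54, 1.65 and 1.502 CPM in deficient mice (adjusted p 0.0571 by edgeR), and was also chosen after its values were seen.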
